A study of Mus musculus with 60 samples.

Results

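Messenger RNA of 7 subunits of the GABA-A receptor was examined in mouse hippocampus: Gabra2, Gabra3, Gabra4 and Gabra5 (the alpha 2 to alpha 5 subunits), Gabrb1 and Gabrb2 (beta 1 and beta 2) and Gabrd (delta). They were chosen by name with earlier results of these data known, so that their counts beside all genes are descriptions. They are 7 of the 19 GABA-A subunit genes in an expression table of 24508 gene symbols, and all 7 passed the filter on low values. The study compared hippocampal tissue of wild-type (WT) mice with that of R6/1 mice, a model of Huntington's disease that carries exon 1 of human huntingtin with an expanded CAG repeat as a transgene under the human huntingtin promoter. All animals were 30 weeks old by their labels, on an equal mix of the CBA and C57BL/6 backgrounds, so that WT and R6/1 share everything named in the labels except the transgene. RNA came from 9 independent biological replicates per genotype. Lamin B1 bound chromatin, each replicate a pool of 5 mice, was available as 1 list of domains per genotype.

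GABA-A receptors are ligand-gated chloride channels assembled from several subunits, usually alpha, beta and gamma, and they carry most of the fast inhibition in the brain. The alpha subunit sets much of the location and pharmacology: alpha 2 and alpha 3 are mostly found in synaptic receptors, alpha 5 is enriched in hippocampal pyramidal neurons, largely outside synapses, and alpha 4 pairs with delta, in place of gamma, in extrasynaptic receptors of dentate granule neurons that respond to ambient GABA. Beta subunits are needed for assembly and surface delivery of the channel.

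Values are RPKM (reads scaled for transcript length and for depth by the authors), which can be set side by side between genes. Reads on genes numbered from 12299179 to 16736154 per library, and the members rested on between 142 reads (Gabrd) and 6117 reads (Gabrb2) in a library. The labelled tissue expressed markers of dentate granule, CA1 and CA3 neurons in every library. In WT replicate 6 a list of 4 genes of the neighbouring thalamus summed to 64.9 RPKM, against at most 31.9 in the other WT libraries and 8.02 to 16.4 in R6/1. WT replicate 7 had the highest levels of cerebellar genes, with Cbln3 at 2.00 RPKM against 0.353 to 0.643 elsewhere. Markers of the choroid plexus varied within both genotypes, from 25.6 to 1075 RPKM in WT and from 38.8 to 1743 in R6/1, and 0 of their 6 genes differed by the limma test, with Ttr at an adjusted p of 0.510. In bulk tissue, fewer cells of a type and less RNA per cell cannot be told apart.

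Of the 7 subunits, 4 were lower in R6/1 (Gabra5, Gabrd, Gabra4 and Gabrb2), 1 was higher (Gabra3) and 2 did not pass the test (Gabra2 and Gabrb1), at an adjusted p under 0.05 in limma over all 14446 tested genes. Among all tested genes 48.3% passed, 23.5% lower and 24.8% higher. For 3 of the 7 all 9 R6/1 libraries lay below all 9 WT libraries, and 6.38% of all tested genes did so; for 0 members the R6/1 libraries all lay above, beside 5.5% of all genes. In either direction, 11.9% of all tested genes had no overlap. The median log2 fold change of the members was -0.34, beside 0.00 over all tested genes. Log2 fold changes here are R6/1 over WT, taken after 0.5 was added to each RPKM value, and come out too small for genes at low levels. The authors' deposited table of the comparison called the same 5 members at an adjusted p under 0.05, where it called 40.4% of 18395 genes.

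**Figure D1:**
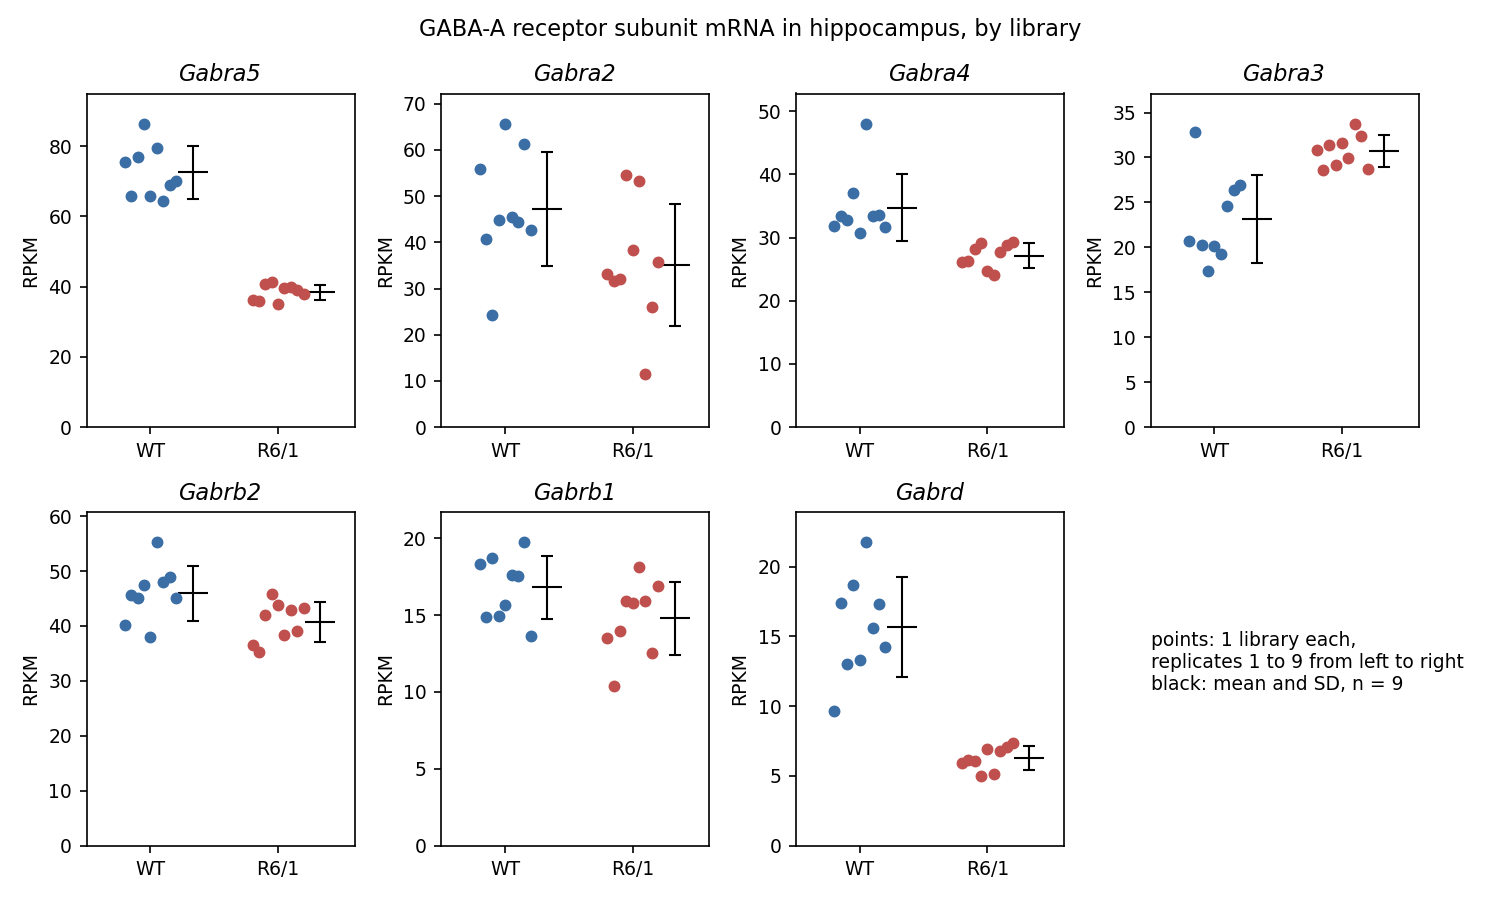
RPKM (vertical axes, from 0) of the 7 subunits in each library, WT in blue and R6/1 in red, with the mean and SD of 9 libraries beside the points. The genotypes stood apart for Gabra5, Gabra4 and Gabrd, while Gabra2 spread from 11.5 to 54.5 RPKM within R6/1.

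Sequence upstream of the transcription start is shown for Gabra5 and Gabra4, both lower with no overlap, and for Gabra3, the member that was higher, so that the start regions of subunits that moved apart can be set side by side. Each is the 250 bases before the start on the gene's own strand, 5′ to 3′, from RefSeq on GRCm38.p6: chr7:57510060-57510309 for Gabra5, chr5:71658309-71658558 for Gabra4 and chrX:72656920-72657169 for the more upstream of the 2 listed starts of Gabra3, all on the minus strand. Capitals mark every match to 7 motifs searched on both strands.
Gabra5: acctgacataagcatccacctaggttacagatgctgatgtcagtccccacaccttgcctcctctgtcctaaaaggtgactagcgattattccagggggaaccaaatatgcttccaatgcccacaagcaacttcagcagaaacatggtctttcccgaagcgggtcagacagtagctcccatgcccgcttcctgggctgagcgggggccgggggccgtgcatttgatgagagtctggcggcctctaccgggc
Gabra4: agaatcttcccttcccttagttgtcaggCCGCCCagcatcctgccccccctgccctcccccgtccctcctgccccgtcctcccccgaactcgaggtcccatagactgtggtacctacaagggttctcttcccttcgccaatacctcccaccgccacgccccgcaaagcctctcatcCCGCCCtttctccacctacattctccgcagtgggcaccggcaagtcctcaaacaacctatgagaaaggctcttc
Gabra3: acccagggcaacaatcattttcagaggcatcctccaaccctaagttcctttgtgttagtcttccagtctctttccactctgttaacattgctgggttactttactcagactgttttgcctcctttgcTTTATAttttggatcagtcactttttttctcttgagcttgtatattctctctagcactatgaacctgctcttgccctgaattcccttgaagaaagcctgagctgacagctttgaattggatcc
The motifs, with the share of 32851 RefSeq windows of the same length that hold each, were the cAMP response element TGACGTCA (1.55%), its core TGACG (17.8%), the EGR site GCGTGGGCG (0.536%), the GC box GGGCGG (32.7%), the E-box CACGTG (6.02%), the AP-1 site TGANTCA (6.75%) and the TATA box TATAAA (12.4%). Every full cAMP response element also counts as a core. Gabra4 held 2 GC boxes on the opposite strand, at positions -222 and -74 counted back from the start, Gabra3 held 1 TATA box on the opposite strand at -123, and Gabra5 held none of the 7. The GC content was 56.4% for Gabra5, 61.2% for Gabra4 and 42.4% for Gabra3, where the median over all windows was 52.4%. Of the other members, Gabra2 held 1 GC box at -205, the first listed start of Gabrb2 held a GC box at -233 and a TATA box at -30, and neither of the 2 listed starts of Gabrb1 held a match. Windows were found for 6 of the 7 members, Gabrd being the other. A match is a string of letters in this window and no measured site.

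Gabra5 had the highest mean of the 7 members in WT and fell by 47.1% in mean RPKM. Its product, alpha 5, marks pyramidal neurons of the hippocampus. The gene lies on chromosome 7 from 64663060 to 64765379 (minus strand, build NCBIM37 for all gene coordinates). WT libraries ran from 64.4 over a median of 70.1 to 86.3 RPKM, and R6/1 libraries from 35.2 over 38.9 to 41.2 RPKM. Every R6/1 library was thus below every WT library, by a wide gap. The means were 72.5 ± 7.44 and 38.4 ± 2.22 RPKM (SD, n = 9 each), and the log2 fold change was -0.91 (limma adjusted p 5.48e-11, SE 0.053). Only 183 of the 14446 tested genes, Gabra5 included, had a log2 fold change as low. Marker lists of the neurons that express Gabra5 were lower in the same libraries: for CA1 pyramidal neurons 5 of 6 genes fell and 1 rose, with sums of 162 to 230 RPKM in WT and 124 to 141 in R6/1, and for CA3 pyramidal neurons 4 of 5 fell, with sums of 78.8 to 134 RPKM in WT and 64.3 to 75.6 in R6/1. No marker of either list was at 0. Lower markers were not particular to these neurons. Among oligodendrocyte genes 4 of 6 fell, among microglial genes 3 of 6 and among endothelial genes 2 of 5. All 6 astrocyte markers fell as well, and 0 genes rose in any of these glial and endothelial lists. Over all tested genes 23.5% fell. The part of any of these lists in the Gabra5 result was not tested. The annotated gene Gm9962 lies opposite to Gabra5, and the sources used here do not give whether reads were counted by strand.

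Gabrd, the delta subunit of extrasynaptic receptors, showed the largest fold change of the 7 and the lowest level. It lies on chromosome 4 from 154759089 to 154772221 (minus strand). WT libraries ran from 9.63 over 15.6 to 21.7 RPKM and R6/1 libraries from 5.00 over 6.14 to 7.36 RPKM. Replicate 1 was the lowest WT library and still stood above all R6/1 libraries. Mean RPKM fell by 60.0%, from 15.7 ± 3.58 to 6.27 ± 0.844 (SD, n = 9 each). On the log2 scale the difference was -1.23 (limma adjusted p 4.62e-08, SE 0.116). Only 62 tested genes, Gabrd included, had a log2 fold change as low.

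Gabra4, the usual alpha partner of delta, was lower by a smaller amount. The gene lies on chromosome 5 from 71960973 to 72049547 (minus strand). WT libraries ran from 30.7 over 33.4 to 48.0 RPKM and R6/1 libraries from 24.2 over 27.8 to 29.2 RPKM. The ranges did not overlap, but the highest R6/1 library came within 2 RPKM of the lowest WT library. The means were 34.7 ± 5.30 and 27.2 ± 1.93 RPKM (SD, n = 9 each), or -0.34 on the log2 scale (limma adjusted p 0.000356, SE 0.068). WT replicate 6, the library with the highest thalamic markers, was the highest library for both Gabra4 (48.0 RPKM, the next at 37.1) and Gabrd (21.7 RPKM, the next at 18.7). When that library was left out, the log2 fold change was -0.28 for Gabra4 (limma adjusted p 4.96e-05) and -1.17 for Gabrd (limma adjusted p 6.73e-08). Of the 4 thalamic markers 3 fell in R6/1 and 0 rose, with a median log2 fold change of -0.57 and sums of 15.7 to 64.9 RPKM in WT and 8.02 to 16.4 in R6/1. Prkcd, a protein kinase C gene, fell with no overlap (log2 fold change -1.64, limma adjusted p 6.00e-06). None of the 4 was at 0, and their part in the Gabra4 and Gabrd results was not tested.

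Within a library, the ratio of Gabra4 to Gabrd differed between genotypes. It ran from 1.92 over 2.21 to 3.31 in WT and from 3.55 over 4.27 to 5.83 in R6/1. The ratio was higher in each R6/1 library than in any WT library. The mean log2 ratio was 1.15 ± 0.234 in WT, against 2.04 ± 0.187 in R6/1 (SD, n = 9 each), a difference of 0.89 with a two-sided exact permutation p of 4.11e-05, the smallest that the 48620 permutations can give, and 0.000247 after Benjamini-Hochberg adjustment over 6 pairs. All 8 markers of dentate granule neurons, the cells in which alpha 4 and delta are known as partners, were lower as well, 5 of them with no overlap. Their sum was 101 to 148 RPKM in WT and 60.98 to 75.9 RPKM in R6/1, with WT replicate 6 the highest and no marker at 0. Over all tested genes 23.5% were lower, and 6.38% lay lower with no overlap. Lower markers were not particular to granule neurons. Of CA1 markers 5 of 6 were lower and 1 higher, and 4 of 5 CA3, 5 of 7 inhibitory neuron and 6 of 6 astrocyte markers were lower. The part of the granule neuron list in the Gabra4 and Gabrd results was not tested.

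Gabra2, an alpha subunit of synapses and of the axon initial segment, varied more between animals than between genotypes. The gene lies on chromosome 5 from 71352296 to 71487088 (minus strand). WT libraries ran from 24.3 over 44.9 to 65.6 RPKM and R6/1 libraries from 11.5 over 33.2 to 54.5 RPKM. The lowest WT library, replicate 3, was below 8 of the 9 R6/1 libraries, and R6/1 replicate 7 was below every other library of either genotype. The means were 47.3 ± 12.3 and 35.2 ± 13.2 RPKM (SD, n = 9 each), and the log2 difference was -0.48 (95% interval -0.96 to -0.01, limma adjusted p 0.0871). The call turned on single libraries: the limma adjusted p was 0.0309 without WT replicate 3, 0.0434 without R6/1 replicate 4 and 0.0460 without R6/1 replicate 6, and the log2 fold change moved to -0.30 (limma adjusted p 0.157) without R6/1 replicate 7. The coefficient of variation, the SD over the mean, was 37.4% among R6/1 libraries. Of 6446 genes at 10 RPKM or more on average, 13 had one as large, Gabra2 included, and the median gene had 7.12%. In WT it was 26.1%, and 84 of the 6446 genes, Gabra2 included, were as variable. With at least 378 reads on Gabra2 in each library, this spread is beyond counting error.

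Gabra3, an alpha subunit that is low in the adult hippocampus relative to other forebrain regions, was the 1 member that rose. It lies on the X chromosome from 69678020 to 69902187 (minus strand). WT libraries ran from 17.3 over 20.7 to 32.8 RPKM and R6/1 libraries from 28.6 over 30.9 to 33.7 RPKM. All 9 R6/1 libraries lay above the WT mean, and the overlap came from WT replicate 2 alone, since the next WT library stood at 27.0 RPKM. The means were 23.2 ± 4.92 and 30.7 ± 1.75 RPKM (SD, n = 9 each), a rise of 32.6%, or 0.42 on the log2 scale (limma adjusted p 0.000677, SE 0.091). Without WT replicate 2 this came to 0.49 (limma adjusted p 2.52e-05). Annotated within Gabra3 are 2 pseudogenes, 2 microRNA genes and a U6 gene.

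Of the beta subunits, Gabrb2 fell slightly and Gabrb1 did not pass the test. Gabrb2, on chromosome 11 from 42233259 to 42446092 (plus strand), ran from 38.0 over 45.7 to 55.2 RPKM in WT and from 35.3 over 42.0 to 45.9 RPKM in R6/1. These ranges overlapped, although all 9 R6/1 libraries were below the WT mean. The means were 45.9 ± 4.98 and 40.8 ± 3.61 RPKM (SD, n = 9 each), and the log2 difference was -0.17 (limma adjusted p 0.0326, SE 0.063). This call depended on the scaling and on single libraries. In limma its adjusted p was 0.0857 after quantile normalization and 0.207 with libraries scaled by their totals, it was 0.0656 without WT replicate 6 and 0.0550 without WT replicate 7, and it was 0.119 without both, the 2 libraries with the highest thalamic and cerebellar genes. Leaving out WT replicate 4 or 8 or R6/1 replicate 1, 2, 6 or 8 ended the call too, with a highest limma adjusted p of 0.0657 over single libraries. Gabrb1, on chromosome 5 from 72091171 to 72529628 (plus strand), ran from 13.6 over 17.5 to 19.7 RPKM in WT and from 10.4 over 15.8 to 18.1 RPKM in R6/1, again with wide overlap. Its means were 16.8 ± 2.07 and 14.8 ± 2.39 RPKM (SD, n = 9 each), and its log2 difference was -0.19 (95% interval -0.38 to 0.00, limma adjusted p 0.0960). Gabrb1 passed without R6/1 replicate 6 (limma adjusted p 0.0462).

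**Figure D2:**
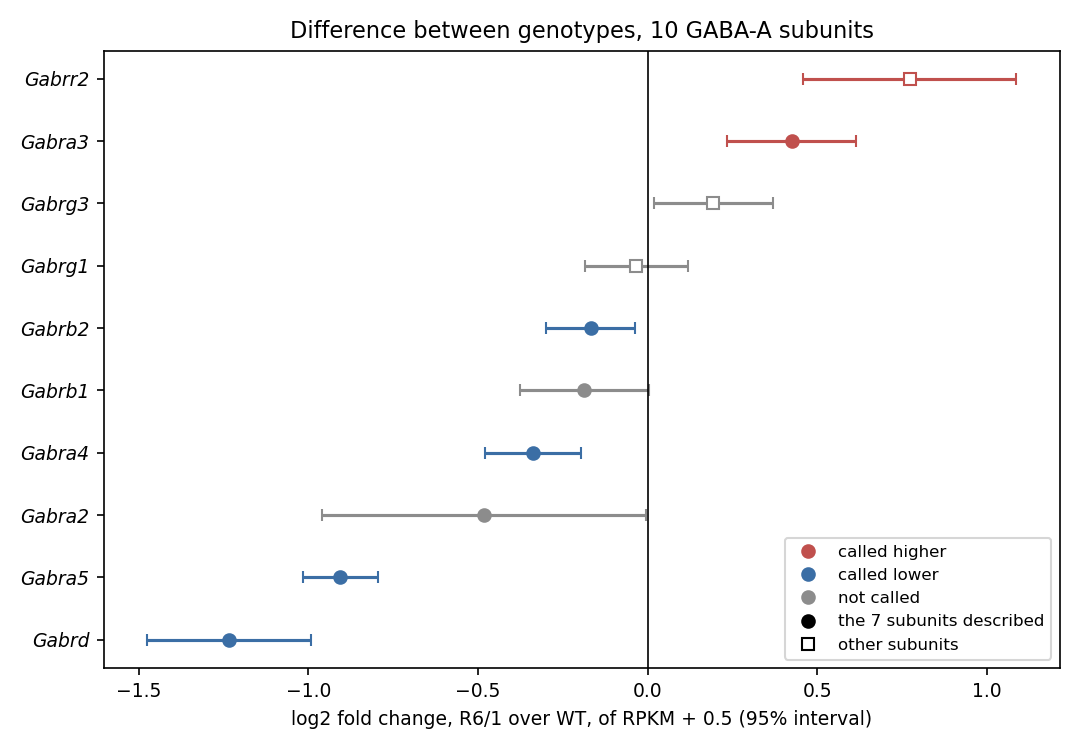
Log2 fold change of R6/1 over WT (horizontal axis, with 95% intervals) for 10 GABA-A subunit genes that passed the filter, circles for the 7 subunits described and open squares for 3 others, coloured by the limma call. Gabrd at -1.23 and Gabra5 at -0.91 lay farthest below 0, and Gabrr2 at 0.77 and Gabra3 at 0.42 farthest above.

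The other 5 pairs tested did not differ in their change beyond the spread of the libraries (two-sided exact permutation tests, adjusted over the 6 pairs). Further pairs of members, among them every pair with Gabra3, were not tested. Gabra2 over Gabra5 had a log2 difference of 0.42 between genotypes (adjusted p 0.420), with the ratio at 0.317 to 1.00 in WT and 0.288 to 1.35 in R6/1. Without R6/1 replicate 7 this pair had a difference of 0.61 (adjusted p 0.0210, exact permutation). The neighbours on chromosome 5 gave log2 differences of -0.14 for Gabra2 over Gabra4 (adjusted p 0.751), -0.30 for Gabra2 over Gabrb1 (adjusted p 0.462) and -0.15 for Gabra4 over Gabrb1 (adjusted p 0.447). Gabrb1 over Gabrb2 had a difference of -0.02 (adjusted p 0.842). A p that misses the threshold does not show that such genes moved alike.

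The order of the levels changed between genotypes. In WT the means ran Gabra5, Gabra2, Gabrb2, Gabra4, Gabra3, Gabrb1 and Gabrd, from high to low. Gabra5 was above Gabra2 in all 9 WT libraries, though only just in WT replicate 5 (65.65 against 65.64 RPKM). Gabra2 was above Gabrb2 in only 3 WT libraries and Gabrb1 above Gabrd in only 5, so neither of these 2 pairs of neighbours differed beyond the spread. In R6/1 the order of means was Gabrb2, Gabra5, Gabra2, Gabra3, Gabra4, Gabrb1 and Gabrd. Gabrb2 was above Gabra5 in 7 of 9 R6/1 libraries and Gabra3 above Gabra4 in 7 of 9, while in WT Gabra4 had been above Gabra3 in all 9. Gabrb1 stood above Gabrd in all 9 R6/1 libraries with no overlap.

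Set against each other within a library, the 4 alpha members (Gabra2, Gabra3, Gabra4 and Gabra5) shifted in make-up. Their summed level was 154 to 192 RPKM in WT and 113 to 154 RPKM in R6/1. The ranges did not overlap but all but met, with the lowest WT sum at 154.07 and the highest R6/1 sum at 154.06 RPKM. Gabra5 made up 40.9 ± 4.60% of the summed level in WT, against 29.4 ± 2.71% in R6/1 (SD, n = 9 each). Its ranges of 36.0 to 49.8% and 26.8 to 35.3% did not overlap. The share of Gabra3 was 13.1 ± 3.10% and 23.6 ± 3.17% (SD, n = 9 each), with ranges of 9.33 to 19.0% and 18.9 to 29.9% that met at their ends. Gabra4 held 19.5 ± 2.49% in WT and 20.8 ± 2.43% in R6/1, and Gabra2 held 26.4 ± 5.90% and 26.2 ± 7.82% (SD, n = 9 each), both with overlapping ranges. These shares are descriptions, and a share of 1 gene also moves with the other 3. The sum leaves out the other alpha subunit genes, so these are not shares of all alpha mRNA.

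**Figure D3:**
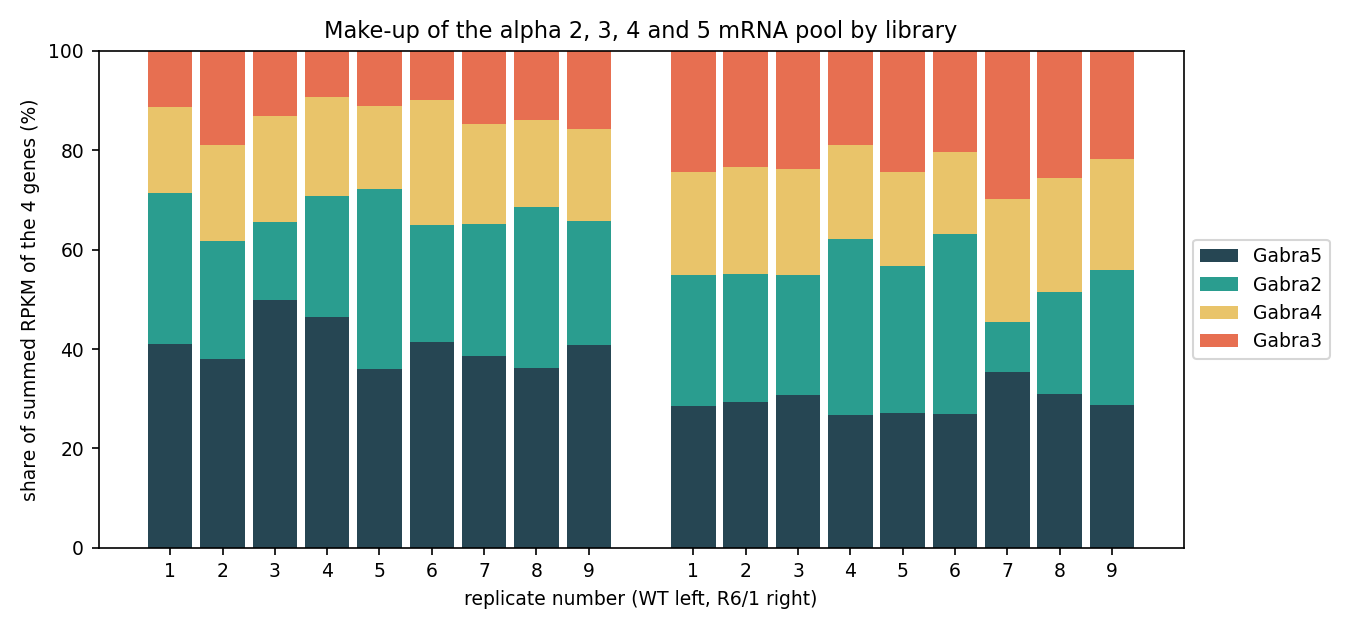
Share of each of the 4 alpha genes in their summed RPKM (vertical axis, percent) for each WT library on the left and each R6/1 library on the right. The Gabra5 share was 36.0% or more in all 9 WT libraries and at most 35.3% in all 9 R6/1 libraries.

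Other subunit genes were described in the same way. Gabrr2, a rho subunit best known from the retina, rose from 0.549 ± 0.142 to 1.35 ± 0.536 RPKM on 7 to 59 reads a library, and 8 of the 9 R6/1 libraries were above all WT libraries (log2 fold change 0.77, limma adjusted p 0.000280). The gamma subunit genes Gabrg1, with means of 7.43 and 7.23 RPKM (limma adjusted p 0.726), and Gabrg3, with 2.53 and 2.97 RPKM (limma adjusted p 0.0646), did not pass. Gabre, Gabrq, Gabrp, Gabrr1 and Gabrr3 were under 0.6 RPKM in all libraries. Among them Gabrq, the theta subunit gene next to Gabra3, had means of 0.122 and 0.299 RPKM, and the authors' deposited table gave it a log2 fold change of 0.87 with an adjusted p of 0.000299. Gabra6, a subunit of cerebellar granule cells, was at 1.76 RPKM in WT replicate 7 and between 0 and 0.104 RPKM in the other 17 libraries. The cerebellar genes Cbln3 (2.00 RPKM), Fat2 (0.361 RPKM) and Pcp2 (1.52 RPKM) were highest in that library too, against at most 0.643, 0.0927 and 0.771 RPKM elsewhere.

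Genes that handle the receptor and its transmitter were described by lists. Of 43 tested genes in 5 lists, which include the other subunits, 10 rose (23.3%), 20 fell (46.5%) and 13 did not pass. Over all tested genes 24.8% rose and 23.5% fell, and the counts of each list below are to be read beside these shares. The split of the 43 genes moved with the scaling. It was 15 higher and 17 lower with libraries scaled by their totals and 13 higher and 19 lower after quantile normalization. The medians of the lists are set beside a median log2 fold change of 0.00 over all genes. Of 20 genes of receptor anchoring and trafficking, 8 rose and 6 fell, with a median of 0.02. Gphn, which encodes the scaffold gephyrin, had means of 21.3 and 21.3 RPKM in the genotypes (limma adjusted p 0.981). Nsf, a factor of membrane fusion, fell with no overlap (log2 fold change -0.31, limma adjusted p 3.94e-05). Trak2, an adaptor for kinesin transport, rose with no overlap (log2 fold change 0.33, limma adjusted p 1.50e-06), and so did Rdx, which encodes the alpha 5 anchor radixin (log2 fold change 0.29, limma adjusted p 4.31e-06). Gabarapl1, with Nsf 1 of the 2 most abundant genes of the list, rose from 298 to 344 RPKM with overlap (log2 fold change 0.21, limma adjusted p 0.000154).

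Of 8 genes for GABA synthesis, vesicular loading, uptake and breakdown, 6 fell and 0 rose, with a median of -0.22. Slc6a11, the astrocytic transporter GAT3, fell from 59.7 ± 9.98 to 38.2 ± 4.84 RPKM (SD, n = 9 each; log2 fold change -0.63, limma adjusted p 4.94e-06). Gad2, 1 of the 2 enzymes that make GABA, fell with a log2 fold change of -0.29, and Aldh5a1, of GABA breakdown, with -0.22 (limma adjusted p 0.000115 and 0.000133), all 3 with no overlap. Gad1, the other such enzyme and among the most abundant of the list, fell with overlap (log2 fold change -0.21, limma adjusted p 0.00203). Slc32a1, of vesicular loading, had means of 24.4 and 25.1 RPKM (limma adjusted p 0.689). Of the inhibitory neuron markers 5 of 7 fell in the same libraries, with sums of 246 to 350 RPKM in WT and 126 to 177 in R6/1 and no marker at 0. Sst was the largest part of these sums, with means of 195 and 86.7 RPKM. Lhx6 (limma adjusted p 0.0778) and Dlx1 (limma adjusted p 0.874) did not pass. All 6 astrocyte markers fell. The part of these 2 marker lists in the results was not tested. All 5 genes of the metabotropic GABA-B receptor fell, with a median of -0.27. Gabbr1 and Gabbr2, its subunits, had log2 fold changes of -0.15 and -0.27, and the auxiliary subunit Kctd12 fell with no overlap (log2 fold change -0.50, limma adjusted p 2.03e-06). Among 4 genes of chloride handling, the channel Clcn2 (log2 fold change -0.73, limma adjusted p 8.37e-07) and the carbonic anhydrase Car7 (log2 fold change -0.67, limma adjusted p 1.31e-06) fell with no overlap, Slc12a2 rose (log2 fold change 0.15, limma adjusted p 0.0437) and Slc12a5, the neuronal chloride exporter KCC2, had means of 101 and 107 RPKM (limma adjusted p 0.0919).

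The way each subunit varied between animals of 1 genotype was then compared with every other tested gene, as Pearson's r of log2 values over the 18 libraries after the mean of each genotype was subtracted. The points share libraries, depth and dissection, the genes named are the highest of all tested genes, and the values are descriptions. Among the members the highest values were 0.68 for Gabra4 with Gabrb2, 0.62 for Gabra4 with Gabrd and 0.58 for Gabrb2 with Gabrd, and the lowest was -0.59 for Gabra3 with Gabra5. WT replicate 6, with the highest thalamic markers, was the highest WT library for each of Gabra4, Gabrb2 and Gabrd. Its part in these values was not tested. For Gabra4 the closest genes were Kcnd2 (0.85; 0.96 within WT and 0.49 within R6/1) and Epha7 (0.85; 0.89 and 0.72). For Gabrd they were Scn4b (0.87), Sept6 (0.86) and Cdh7 (0.84). Gabra5 was closest to C2cd4b, Crmp1 and Prkce (each 0.86). For Gabra3 the closest were Elavl4 (0.91), Gng4 (0.91) and Necab1 (0.90). Within the genotypes taken alone Elavl4 had 0.95 in WT and 0.74 in R6/1, Gng4 0.96 and 0.45, and Necab1 0.94 and 0.38. Gabrb1 was closest to Lnpep (0.93), Slc9a7 (0.92) and Dmxl2 (0.91), and Gabrb2 to Top2b (0.91), Hipk3 (0.90) and Gucy1a2 (0.88).

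Gabra2 had no value over 0.26 in size with any other member. Its closest gene was Bend4 (0.80), followed by Vav1 (0.78) and 2700054A10Rik (0.76). Bend4 lies on the same chromosome, from 67783386 to 67819038, with its start 3.67 Mb from that of Gabra2. Its libraries ran from 1.87 to 2.93 RPKM in WT and from 2.18 to 3.20 RPKM in R6/1, and it did not differ between genotypes by the test (limma adjusted p 0.130). The value was 0.92 within WT and 0.75 within R6/1, Spearman's rho was 0.87, and r was 0.76 over 16 libraries without R6/1 replicate 7 and WT replicate 3, those farthest from the median of Gabra2. Of 61 other tested genes with a start within 10 Mb of Gabra2, 4 (6.56%) had an r of at least 0.6 in size, against 0.566% of 12018 genes on other chromosomes; window and bound were chosen after values were seen. These 4 were Bend4, C530008M17Rik (0.70), Slc30a9 (0.61) and Nsun7 (-0.71), of which Slc30a9 (0.49) and Nsun7 (-0.50) were under the bound without the same 2 libraries. For the other 6 members the share within 10 Mb lay between 0.862% and 4.92%, and on other chromosomes between 3.32% and 4.63%.

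**Figure D4:**
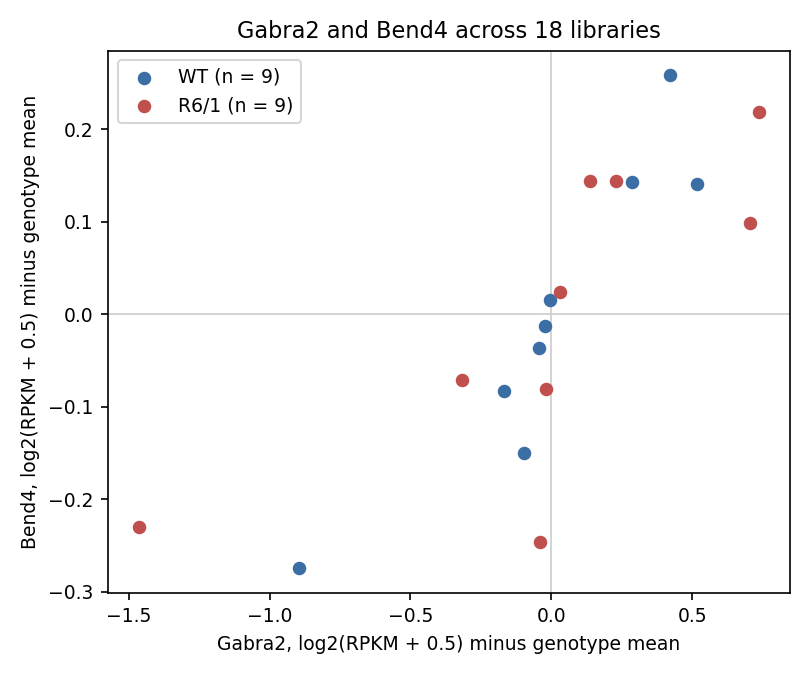
Gabra2 (horizontal axis) against Bend4 (vertical axis) in the 18 libraries, each as log2(RPKM + 0.5) minus the mean of its genotype, WT in blue and R6/1 in red. The libraries lowest for Gabra2, R6/1 replicate 7 and WT replicate 3, were also among the lowest of their genotype for Bend4, and r was 0.80.

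The subunit genes were placed on the deposited lamin B1 domains, long stretches of chromatin at the nuclear lamina, of which WT had 145 and R6/1 had 166. With 1 list per genotype these positions have no replicate spread and no test. The starts of 6 of the 7 members lay in a WT domain and of 4 in an R6/1 domain. Gabra2, Gabra4, Gabra5 and Gabrb2 started inside a domain of both genotypes, although all 4 were well expressed: among 979 tested genes that start in a domain of both, Gabra5 ranked 38 by WT level, Gabra2 64, Gabrb2 69 and Gabra4 112. Gabrd lay in no domain, 10.3 Mb from the nearest in either list. The domain around Gabra5 and Gabrg3 ran from 63492001 to 66452000 on chromosome 7 in WT (2.96 Mb) and from 63603001 to 65860000 in R6/1 (2.26 Mb).

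By the NCBIM37 starts used here, the other 2 members started in a WT domain only. Gabra3 lay within a WT domain of 67.6 Mb on the X chromosome, from 52540001 to 120139000, 17362 kb from its edge. In R6/1 it lay in a gap of 7.92 Mb between domains, from 67340001 to 75258000, 2562 kb from the nearest domain. Of 66 tested genes with a start in that gap, 21 rose (31.8%) and 9 fell (13.6%), with a median log2 fold change of 0.08, and only Gpr50 (log2 fold change 0.82) had a higher fold change than Gabra3. Among all 692 tested genes with a start in WT domains only, 24.7% rose and 19.8% fell, beside 25.7% and 23.8% of 11110 genes in no domain. Gabrb1 started 21.8 kb inside the end of the WT domain on chromosome 5 and 15.2 kb outside the end of the R6/1 domain. The 2 ends, at 72113000 and 72076000, differ by 37.0 kb. In these lists 98.9% of the bounds lie whole steps of 37.0 kb apart, so the placing of Gabrb1 rests on 1 step. RefSeq on GRCm38.p6 lists a further start of Gabrb1 42.0 kb upstream, 387 bases from that of Gabra4. The Gabra4 start lay 63.5 kb inside the end of the WT domain and 26.5 kb inside that of R6/1. By this further start Gabrb1 would thus begin in a domain of both genotypes.

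**Figure D5:**
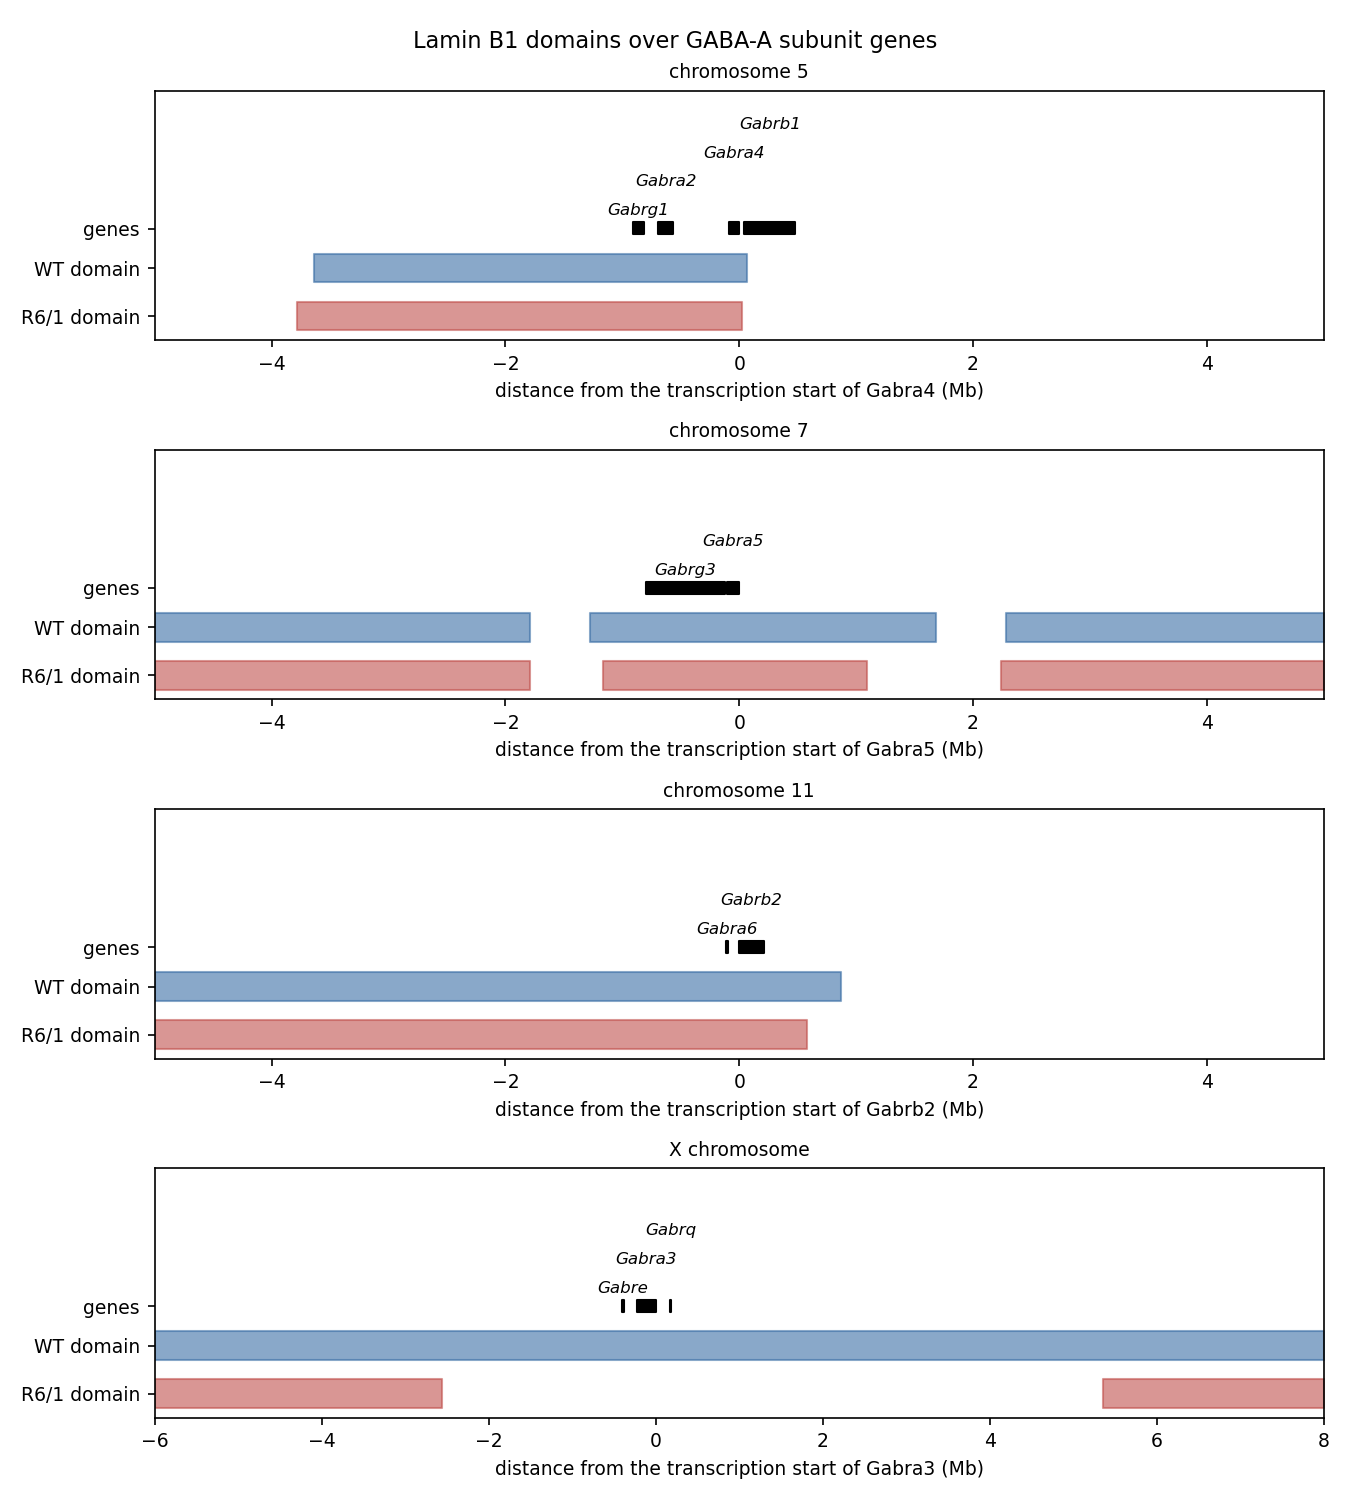
Lamin B1 domains of WT (blue) and R6/1 (red) over GABA-A subunit genes (black) on 4 chromosomes, by distance in Mb from the start of Gabra4, Gabra5, Gabrb2 or Gabra3 (horizontal axes); bars cut at the frame go on beyond it. Domains of both genotypes covered Gabra2, Gabra4, Gabra5 and Gabrb2, and the R6/1 list had a gap of 7.92 Mb around Gabra3.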

How the data were processed

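Per the labels' protocols, messenger RNA was sequenced with a kit that keeps strand. The authors deposited RPKM for 24508 gene symbols; TopHat, DESeq2 and build mm9 are named in the submitters' processing notes, and the counter and its use of strand are not given in the sources used here. A table that the authors deposited for the comparison holds, per gene, a mean normalized signal, log2 fold changes, a test score, p-values and adjusted p-values. With its means, between 99.89% and 99.92% of the deposited RPKM values per library were whole reads within 0.05 of a read, which gave the depths. For 28 of 20791 genes, Gabra6 among them, the values were not whole in every library, and no reads are given. The deposited lamin B1 lists hold domains with 1 score each, which was not used; Bowtie and mm9 are named for them in the submitters' processing notes. How 3 replicates of 3 lanes each were combined is not given in the sources used here. ATAC-seq of 6 samples was not analysed here, and no per-sample column was left out (0 unused).

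Groups follow the genotype that each label gives. The test was limma 3.58.1 (lmFit and eBayes with trend, in R 4.3.3) on log2(RPKM + 0.5), two-sided, on 14446 genes whose mean over 18 libraries reached 0.5 RPKM, Benjamini-Hochberg adjusted over all of them. "Fell" and "rose" are used for an adjusted p under 0.05. On simulated data (14234 genes tested, 197 changed) it recovered 66.0% of log2 changes of 0.3, 92.0% of 0.6, 93.9% of 1 and 100% of 2, and unchanged genes made up 4.95% of its calls. The simulated noise was independent between genes and few genes were changed, whereas 48.3% of genes passed in the data. These rates need not hold for the comparison itself. Ratios were tested by exact permutation. Genes were placed on NCBIM37 (mm9) with GENCODE annotation. Members and lists were chosen with earlier results of these data known, so that their counts are descriptions. The genes named are the 7 members, all measured subunits, the genes of each list that passed with no overlap (up to 8) and its 2 most abundant, and for each member the 3 genes with the highest r, except a few that are not reported here. Bend4's neighbours and the genes around Gabra3 were chosen after their values were seen. Alternatives were other pseudocounts (0.1 and 1), filters (none and 2 RPKM), scalings, variance models, a choroid plexus covariate, voom, the replicate number as a block and leaving out libraries.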

Additional observations from a re-analysis of the deposited data

Results flagged for a closer look

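Dixon's ratio set 1 library apart in 5 of the 38 groups of 9 libraries; about 1 in 20, or 1.9 groups, is what chance gives. Gabra4 in WT replicate 6 reached 48.0 RPKM, while the next WT library had 37.1, in the library with the highest thalamic markers. The log2 ratio of Gabra4 to Gabrd in WT replicate 1 was 1.68, above the next at 1.30, where Gabrd itself was lowest for WT. The log2 ratio of Gabra2 to Gabrb1 was 0.37 in WT replicate 3, below the next WT library at 1.31, and -0.46 in R6/1 replicate 7, below the next R6/1 library at 1.03. In R6/1 replicate 7 the log2 ratio of Gabra2 to Gabra5 was -1.75, below the next at -0.57. The last 3 are the libraries with the lowest Gabra2 of their genotype, on 378 reads or more, and 2 of them are the same library.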

How the results depend on the processing

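Gabra5, Gabrd, Gabra4 and Gabra3 kept their direction and their call under all 33 alternatives, with log2 fold changes of -0.93 to -0.83, -1.31 to -1.16, -0.36 to -0.27 and 0.38 to 0.50. Gabrb2 kept its call in 22 of the 33, Gabra2 stayed without one in 30 and Gabrb1 in 32. The number of lower members was 3 to 5 and of higher members 1 when each library was left out in turn, and other GABA genes then numbered 9 to 11 higher and 20 to 21 lower. Scaling each library to its own total of reads moved the whole table to 5110 higher and 2526 lower genes (66.9% of calls higher, from 51.4%) and the median log2 fold change to 0.07, and quantile normalization gave 4251 and 3045 (58.3%). Other GABA genes were then 15 higher and 17 lower, and 13 higher and 19 lower, from 10 and 20.

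The ratio of Gabra4 to Gabrd differed by 0.84 to 0.96 on the log2 scale over 22 alternatives. The difference of Gabrb1 over Gabrb2 changed sign, to 0.021 without WT replicate 1, 0.0042 without WT replicate 3, 0.0032 without WT replicate 5, 0.015 without R6/1 replicate 2 and 0.00098 without R6/1 replicate 8, within -0.067 to 0.021 over single libraries. That of Gabra2 over Gabra4 lay between -0.25 and 0.043 and was positive, 0.043, only without R6/1 replicate 7. The difference of Gabra2 over Gabra5 lay between 0.30 and 0.61. The cause was not tested.

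The labels number replicates 1 to 9 in both genotypes, but only 3 of 9 same-numbered pairs had deviations with r over 0.1 (range -0.053 to 0.24) and 2 libraries correlated best with their own number, so the numbers were not taken to pair animals. With the replicate block, 4 members were lower and 1 higher, 3666 genes in all were higher and 3467 lower, and the ratio of Gabra4 to Gabrd had an adjusted exact permutation p of 0.0234. By median in place of mean, 5 of 7 ranks in WT held. Counting members wholly inside a domain gave 5 in WT and 4 in R6/1, and those within 100 kb of one 6 and 5. Depth limits Gabrr2 and the subunits under the filter most.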
